A study of Homo sapiens with 12 samples.

Results

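The comparison described here is that of LOX-IMVI BR melanoma cells exposed to BIBR1532 with control cells of the same line. It rests on 4 of the 12 libraries of the study, 2 of BIBR1532 and 2 of control, taken by line and treatment as the labels of the count table give them. The study also holds 2 libraries of LOX-IMVI BR under 6-thio-dG and, of the melanoma line A375, 2 libraries each under BIBR1532, 6-thio-dG and control. Both lines are established human metastatic melanoma lines. BIBR1532 was given at 25 µM and 6-thio-dG at 5 µM to cells plated at 25000 per well, and RNA was extracted with TRIzol for libraries made with a TruSeq kit that keeps no strand information. The labels give the 2 libraries of a group as biological replicates, and nothing further says that they came from separate cultures. The sources used here do not say what BR means, which vehicle the control had or how long the exposure lasted.

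Telomerase is the reverse transcriptase that adds telomeric repeats to chromosome ends, with TERT as its catalytic subunit and TERC as its RNA template. BIBR1532 is a small molecule that binds TERT outside its active site and lowers its processivity, whereas 6-thio-dG is a nucleoside analogue that telomerase can build into telomeres. Several stress pathways run in parallel in melanoma cells. When amino acids are short or eIF2-alpha kinases are active, translation of the transcription factor ATF4 goes up, and ATF4 switches on genes of amino acid uptake and synthesis together with CHOP (DDIT3), TRIB3 and CHAC1. NF-kappaB drives cytokines, chemokines and its own inhibitors, p53 drives growth arrest and death genes, and HIF-1 drives glycolysis, glucose uptake and CA9 when oxygen is low.

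The 2 BIBR1532 libraries held 15659280 and 23097865 counts, and the 2 control libraries 22700497 and 24503959, within a range of 11813413 to 25822566 over all 12. Levels are CPM, counts relative to a library total scaled by the trimmed mean of M values (TMM), and differences are log2 fold changes ± standard error (SE) from a fit of edgeR's quasi-likelihood test to all 12 libraries. Calls are of genes with an adjusted p under 0.05 (Benjamini-Hochberg, over all 29114 genes tested). The spread between replicates in that fit, a biological coefficient of variation of 25.8%, is that of both lines together. It was 4.55% in the 6 LOX-IMVI BR libraries alone, and a fit of those 6 called 5559 genes higher and 5243 lower. The calls below are therefore those that pass against the wider spread. Because CPM are shares of a library, fewer cells expressing a gene and less of its RNA per cell cannot be told apart.

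With BIBR1532, 845 genes were called higher and 201 lower than in control, which is 2.9% and 0.69% of the genes tested. Of the 14439 genes with symbols, 438 were higher (3.03%) and 108 lower (0.748%). The 14675 long noncoding genes of the NONCODE catalogue gave 407 higher (2.77%) and 93 lower (0.634%). Genes called higher thus made up 80.8% of all calls. The median log2 fold change was 0.04 over all genes and 0.09 over symbol-named genes. The log2 fold change went down with GC content (Spearman's rho -0.25 across 11024 genes, which are not independent): with the genes cut into 8 bins of equal size by GC content, its median was 0.25 in the bin of lowest GC and -0.11 in that of highest GC. With a correction for GC content, fitted to symbol-named genes with a known sequence, 1098 were called higher and 690 lower, so that 61.4% of calls were higher. Leaving out any 1 of the 4 libraries left 174 to 376 genes higher and 20 to 38 lower.

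**Figure D1:**
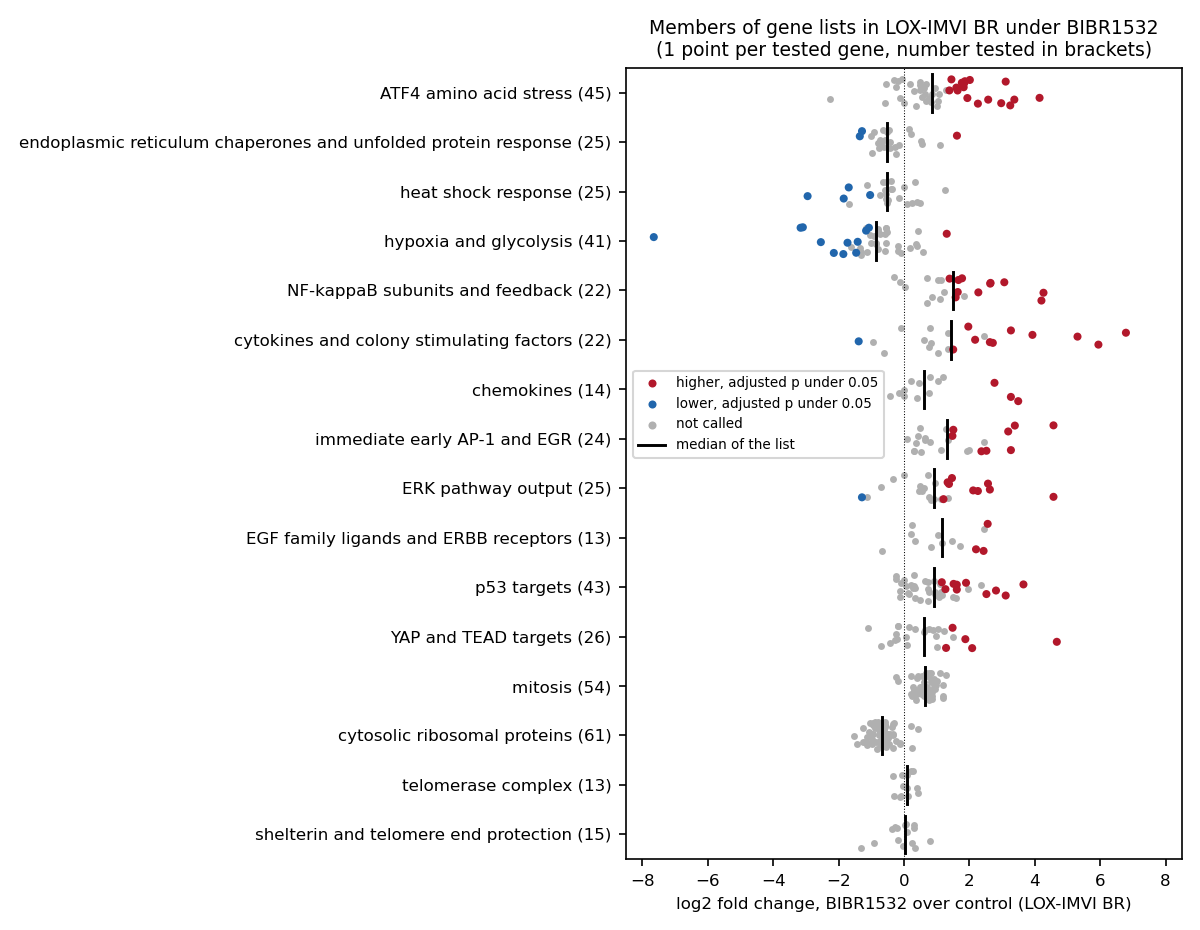
Log2 fold change of BIBR1532 over control in LOX-IMVI BR (horizontal axis) for each tested member of 16 gene lists (rows). Red points were called higher, blue points lower, grey points neither, and black bars are list medians. The ATF4, NF-kappaB, cytokine and AP-1 rows hold red points to the right of 0 (with 1 blue point among the cytokines), the hypoxia row holds 11 blue points to the left, and the mitosis, ribosomal protein, telomerase and shelterin rows hold grey points.

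Genes of the ATF4 amino acid stress programme were higher under BIBR1532. Of 45 tested members of that list (46 listed), 17 were called higher and none lower, with a median log2 fold change of 0.85 against 0.09 over symbol-named genes. The largest rise was that of CHAC1, a glutathione-degrading enzyme. CHAC1 had 68.7 and 78.5 CPM in the 2 BIBR1532 libraries, against 4.17 and 4.14 CPM in the control libraries. The log2 fold change was 4.14 ± 0.38 (adjusted p = 4.4e-05, edgeR), and the replicates of each group lay close to each other. DDIT3, which encodes the death-associated factor CHOP, had 323 and 296 CPM with BIBR1532 and 38.7 and 40.2 CPM in control (log2 fold change 2.97 ± 0.30, adjusted p = 8.74e-05, edgeR). SESN2, a leucine sensor that restrains mTORC1, had 341 and 313 CPM with BIBR1532 and 37.1 and 38.7 CPM in control, and STC2, a secreted glycoprotein, 365 and 282 CPM with BIBR1532 and 55.6 and 52.98 CPM in control. In each of these genes both BIBR1532 libraries lay above both control libraries with a wide gap. Their log2 fold changes were 3.11 ± 0.33 for SESN2 and 2.57 ± 0.28 for STC2.

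Further called members take part in amino acid supply and feedback, and they are named here after their values were seen. TRIB3, a pseudokinase that feeds back on ATF4, had 280.4 and 209 CPM with BIBR1532 and 23.7 and 23.5 CPM in control. ASNS, asparagine synthetase, had 368 and 310.0 CPM with BIBR1532 and 96.0 and 92.8 CPM in control (log2 fold change 1.84 ± 0.33, adjusted p = 0.0055, edgeR). The serine synthesis enzymes PSAT1 and PSPH, the alanyl-tRNA synthetase AARS and the amino acid transporters SLC1A4, SLC3A2 and SLC7A5 were also called higher, with log2 fold changes between 1.39 (AARS) and 3.25 (SLC1A4). PPP1R15A, which encodes the eIF2-alpha phosphatase subunit GADD34, had 1806 and 1300.1 CPM with BIBR1532 and 323 and 326 CPM in control. The mRNA of ATF4 itself did not pass the test, at 1087 and 1038 CPM with BIBR1532 and 1205 and 1207 CPM in control (adjusted p = 0.872, edgeR). Without 1 of the 4 libraries, 8 to 11 members were called higher, and in the fit of the 6 LOX-IMVI BR libraries alone the list had 34 higher and 5 lower members.

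The promoters of CHAC1 and ASNS are shown as examples of called ATF4 list members with a match to the motif below. Windows are the 250 bases before the annotated start of the gene, from RefSeq on GRCh38.p14, chr15:40953221-40953470 on the plus strand for CHAC1 and chr7:97872409-97872658 on the minus strand for ASNS. Capitals mark the match to the core TGATGNAA of the element that dimers of ATF4 with C/EBP factors bind, searched on both strands.
CHAC1: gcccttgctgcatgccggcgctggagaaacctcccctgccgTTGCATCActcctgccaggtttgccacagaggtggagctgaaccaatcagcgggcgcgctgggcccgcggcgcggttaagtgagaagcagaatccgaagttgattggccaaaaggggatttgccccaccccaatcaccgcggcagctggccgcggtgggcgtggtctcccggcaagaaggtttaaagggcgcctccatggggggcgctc
ASNS: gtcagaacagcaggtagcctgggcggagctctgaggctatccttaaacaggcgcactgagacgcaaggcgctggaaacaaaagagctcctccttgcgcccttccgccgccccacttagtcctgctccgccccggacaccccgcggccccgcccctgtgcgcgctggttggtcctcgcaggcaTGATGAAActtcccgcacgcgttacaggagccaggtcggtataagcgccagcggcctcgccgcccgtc
The core starts 209 bases before the start in CHAC1, where it reads on the opposite strand, and 68 bases before it in ASNS. It was present in the same window of 5 of the 14 called ATF4 list members with a promoter in the table (35.7%), AARS, ASNS, CEBPG, CHAC1 and JDP2, and of 3.886% of the 27305 genes in the table. DDIT3, SESN2 and STC2, described above, were not among these 5. For a gene with several annotated starts, a match in any of its windows counts, here and for the motifs below. A match is a description of the letters and was not tested as a binding site. For none of the motifs was the share among uncalled members of the same lists computed. The shares therefore do not tell called members from the rest of their list.

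NF-kappaB genes and the inflammatory factors it controls were higher as well. Of 22 tested NF-kappaB subunits and feedback genes (24 listed), 11 were called higher and none lower (median log2 fold change 1.49). Of 22 tested cytokines and colony stimulating factors (26 listed), 10 were higher and 1, TGFB1, was lower (median 1.43). Of 14 tested chemokines (19 listed), 3 were higher and none lower (median 0.62). Among the feedback genes, TNFAIP3, which encodes the ubiquitin editor A20, had 808 and 449 CPM with BIBR1532 and 75.0 and 75.0 CPM in control (log2 fold change 3.07 ± 0.34, adjusted p = 0.000191, edgeR). TRAF1, an adaptor of TNF receptors, had 183 and 92.8 CPM with BIBR1532 and 6.93 and 7.42 CPM in control. BIRC3, which encodes the ubiquitin ligase cIAP2, had 961 and 645 CPM with BIBR1532 and 44.3 and 42.9 CPM in control (log2 fold change 4.2 ± 0.71, adjusted p = 0.0036, edgeR). The groups did not overlap in any of these genes, although BIRC3 was no longer called without either of the control libraries. The subunit gene RELA did not pass (adjusted p = 0.702, edgeR), and NFKB2 had 623 and 425 CPM with BIBR1532 and 151 and 155 CPM in control.

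The secreted factors reached some of the highest folds in the comparison. IL6, a cytokine of the acute phase response, had 555 and 319 CPM with BIBR1532 and 28.7 and 28.7 CPM in control (log2 fold change 3.93 ± 0.34, adjusted p = 4.4e-05, edgeR). The neutrophil chemokine CXCL8 had 3248 and 1786 CPM with BIBR1532 and 273 and 249 CPM in control, and CXCL2 had 889.8 and 491 CPM with BIBR1532 and 63.1 and 59.6 CPM in control. Both chemokines act through the receptor CXCR2 and were clear of control in each library. IL1A had 2155 and 1409 CPM with BIBR1532 and 194 and 176 CPM in control, whereas IL1B, the other interleukin-1 ligand, had 1876 and 1348 CPM with BIBR1532 and 422 and 403 CPM in control and so stood on a higher control level. The pentraxin PTX3, a secreted pattern-recognition protein, had 1642 and 814 CPM with BIBR1532 and 31.9 and 30.2 CPM in control (log2 fold change 5.30 ± 0.40, adjusted p = 3.81e-05, edgeR). CSF2, which encodes GM-CSF, had the largest called log2 fold change of a symbol-named gene at 5 CPM or more, 6.79 ± 0.57, with 29.4 and 14.0 CPM with BIBR1532 and 0.100 and 0.273 CPM in control. TNF, named after its values were seen, had 109 counts over the 2 BIBR1532 libraries and 2 over the 2 control libraries, a ratio of 63.5 with a 95% counting interval of 17.2 to 531.

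The 2 BIBR1532 libraries differed in these genes. The level in replicate 1 was a median 1.34 times that in replicate 2 over the cytokines, 1.39 times over the chemokines and 1.35 times over the NF-kappaB list, against 0.98 times over all genes. Replicate 1 was thus the higher of the pair in IL6, CXCL8, CXCL2, IL1A, PTX3, CSF2, TNFAIP3 and TRAF1, and the lower of the BIBR1532 libraries still stood above both control libraries in each of them. Without replicate 1 of BIBR1532 or any other single library, 5 to 10 NF-kappaB members, 8 to 9 cytokines and 3 chemokines were called higher. Leukocyte markers moved in the same direction, with all 8 tested above 0 (median log2 fold change 0.75). The summed level of the 14 listed markers was 222 and 235 CPM with BIBR1532 and 97.3 and 97.4 CPM in control. Of the 8 tested, 2 were called higher, ITGAM and LCP1. LCP1 was no longer called without either control library, and ITGAM without these or replicate 1 of BIBR1532. With BIBR1532, LCP1 had 6.78 and 7.72 CPM and ITGAM 1.44 and 1.12 CPM. Most of the summed level thus came from markers that were not called. CD3E was at 0 counts in all 4 libraries, 10 of the 14 markers were under 1 CPM in each, and the part of other cells in the inflammatory genes was not tested.

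Promoter windows of IL6, CXCL2 and BIRC3 are given as examples of called inflammatory list members with a match to the motif below. They are from RefSeq on GRCh38.p14: chr7:22726950-22727199 on the plus strand, chr4:74099196-74099445 on the minus strand and chr11:102317234-102317483 on the plus strand. Capitals mark the match to a form of the kappaB site that reads GGG, any 2 bases, TT, any base and CC, searched on both strands.
IL6: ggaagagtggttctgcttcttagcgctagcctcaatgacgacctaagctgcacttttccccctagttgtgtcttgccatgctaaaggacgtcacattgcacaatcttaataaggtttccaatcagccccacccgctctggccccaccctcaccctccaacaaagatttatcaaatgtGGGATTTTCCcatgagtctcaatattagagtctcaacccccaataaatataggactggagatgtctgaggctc
CXCL2: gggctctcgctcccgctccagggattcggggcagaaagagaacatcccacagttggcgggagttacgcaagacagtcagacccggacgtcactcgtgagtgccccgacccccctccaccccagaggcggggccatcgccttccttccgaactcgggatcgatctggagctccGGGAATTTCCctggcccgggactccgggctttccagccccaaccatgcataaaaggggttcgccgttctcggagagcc
BIRC3: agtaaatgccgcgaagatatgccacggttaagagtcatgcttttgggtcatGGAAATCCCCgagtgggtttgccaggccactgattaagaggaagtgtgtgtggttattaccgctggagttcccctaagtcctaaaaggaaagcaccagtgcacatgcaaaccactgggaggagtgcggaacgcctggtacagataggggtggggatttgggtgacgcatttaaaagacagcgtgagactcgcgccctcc
The match begins 73 bases before the start in IL6, 78 in CXCL2 and 199 in BIRC3. It was found in 11 of the 20 called members of the 3 inflammatory lists that have a promoter in the table (55.0%), and in 6.142% of all genes in the table. TRAF1, CXCL8, IL1A and CSF2, described above, were not among these 11.

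**Figure D2:**
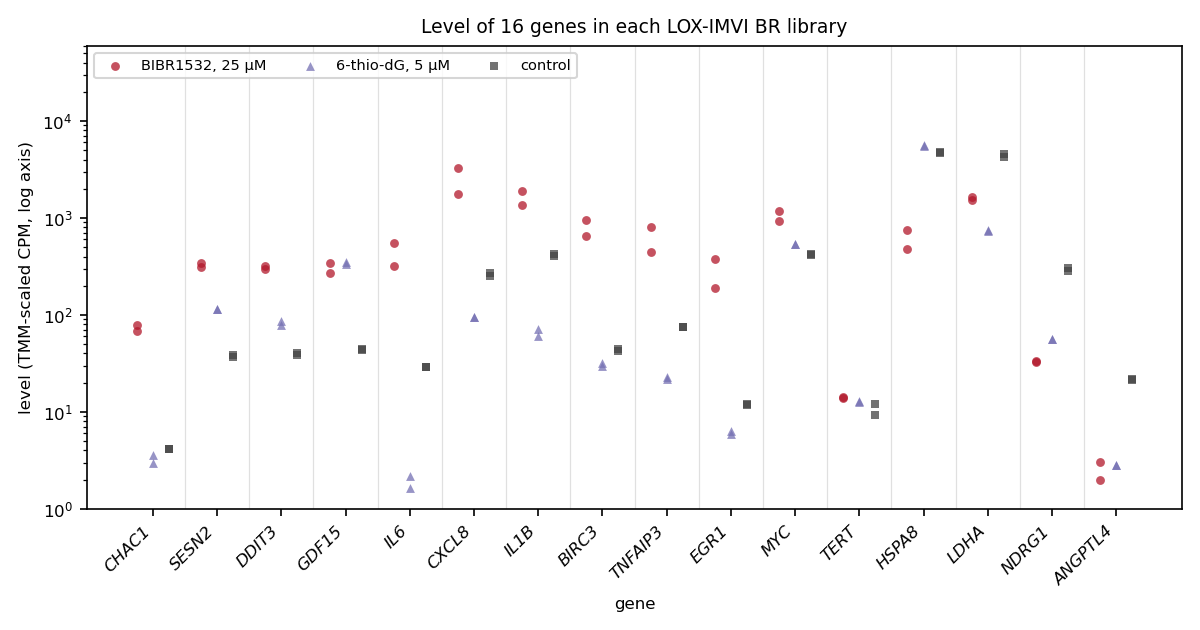
Level in TMM-scaled CPM (log axis) of 16 genes in each LOX-IMVI BR library, with BIBR1532 at 25 µM (red circles), 6-thio-dG at 5 µM (purple triangles) and control (black squares), 1 point per library. The stress and inflammatory genes are highest with BIBR1532 except for GDF15, which is as high with 6-thio-dG, while HSPA8, LDHA, NDRG1 and ANGPTL4 are lower with BIBR1532 than in control and TERT differs little between the groups.

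Immediate early genes and outputs of the ERK pathway were also raised. Of 24 tested AP-1 and EGR genes, 8 were called higher and none lower (median log2 fold change 1.31). Of 25 tested ERK output genes, 9 were higher and 1 lower (median 0.92). EGR1 is counted in both lists, and the ERK rises include LIF and PPP1R15A, the latter described above with the ATF4 genes. EGR1, a zinc finger factor that growth factor signals switch on rapidly, had 374.9 and 187 CPM with BIBR1532 and 12 and 11.7 CPM in control (log2 fold change 4.57 ± 0.49, adjusted p = 0.000133, edgeR). Replicate 1 of BIBR1532 was again the higher one, and the groups were far apart. ATF3, a stress-inducible AP-1 family member, had 25.1 and 21.2 CPM with BIBR1532 and 2.66 and 2.14 CPM in control. DUSP5, an ERK phosphatase, had 67.8 and 61.1 CPM with BIBR1532 and 11.4 and 10.3 CPM in control. Its relative DUSP6 had 189.5 and 155 CPM with BIBR1532 and 66.1 and 58.5 CPM in control. The DUSP6 call was lost without replicate 1 of BIBR1532 or either control library. The 1 fall in the ERK list was that of BMF, a BH3-only death gene that ERK signalling represses, at 4.25 and 4.21 CPM with BIBR1532 and 11 and 9.65 CPM in control, a call lost without any 1 of the 4 libraries. MYC had 1166 and 938 CPM with BIBR1532 and 424 and 410.2 CPM in control (log2 fold change 1.33 ± 0.29, adjusted p = 0.0166, edgeR), a call that was lost without any 1 of the 4 libraries. Leaving out 1 library brought the rises to 4 to 6 in each of these lists.

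Ligands of the EGF receptor family were part of the response. Of 13 tested ligands and receptors, 3 were called higher and none lower (median log2 fold change 1.17). Epiregulin (EREG) had 369 and 312 CPM with BIBR1532 and 76.2 and 71.8 CPM in control. HBEGF had 43.3 and 30.1 CPM with BIBR1532 and 6.53 and 5.92 CPM in control, and NRG1, a ligand of ERBB3 and ERBB4, 56.7 and 47.0 CPM with BIBR1532 and 10.04 and 9.15 CPM in control. All 3 stood well above control in both libraries. Of 26 tested YAP and TEAD targets, 5 were higher and none lower (median 0.63). CYR61, a secreted matricellular protein, had 3473 and 2839 CPM with BIBR1532 and 875 and 845 CPM in control (log2 fold change 1.88 ± 0.29, adjusted p = 0.00158, edgeR), and it lost its call without either control library. ANKRD1, a low-level gene often used as a readout of YAP, had 3.70 and 3.93 CPM with BIBR1532 and 0.201 and 0.0910 CPM in control. SERPINB2, an inhibitor of plasminogen activators, had 499.6 and 408 CPM with BIBR1532 and 75.9 and 72.4 CPM in control, and the laminin chain gene LAMB3 had 117 and 83.0 CPM with BIBR1532 and 17.6 and 18.1 CPM in control.

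Of 43 tested p53 targets, 10 were called higher and none lower (median log2 fold change 0.93), and CDKN1A and MDM2 were not among them. GADD45A, a growth arrest gene that stress kinases also induce, had 622 and 430.0 CPM with BIBR1532 and 43.5 and 40.1 CPM in control (log2 fold change 3.65 ± 0.31, adjusted p = 4.4e-05, edgeR). GDF15, a stress-induced cytokine, had 339.7 and 273 CPM with BIBR1532 and 44.3 and 43.0 CPM in control (log2 fold change 2.81 ± 0.38, adjusted p = 0.000588, edgeR). SESN2, described above with the ATF4 genes, is on both lists, and BTG2 is also on the immediate early list. CDKN1A, which encodes the cell cycle inhibitor p21, had 95.4 and 111 CPM with BIBR1532 and 54.6 and 51.3 CPM in control, and did not pass (adjusted p = 0.154, edgeR). MDM2, the p53 ubiquitin ligase, had 188 and 223 CPM with BIBR1532 and 104 and 108 CPM in control, and did not pass either (adjusted p = 0.311, edgeR). In the fit of the 6 LOX-IMVI BR libraries alone 32 members were higher and 3 lower, and without 1 library 4 to 5 were higher.

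Genes of the hypoxia and glycolysis programme went the other way. Of 41 tested members (42 listed), 11 were called lower and 1 higher, and the median log2 fold change was -0.87. CA9, a cell surface carbonic anhydrase and a classic HIF-1 target, had 3 counts over the 2 BIBR1532 libraries and 769 over the 2 control libraries. The control level was 220.1 times that under BIBR1532, with a 95% counting interval of 75.0 to 1069.6 (adjusted p = 9.92e-05, edgeR). NDRG1, a hypoxia-inducible stress gene, had 32.6 and 33.4 CPM with BIBR1532 and 307 and 284 CPM in control (log2 fold change -3.16 ± 0.37, adjusted p = 0.000281, edgeR). ANGPTL4, a secreted lipase inhibitor, had 1.99 and 3.04 CPM with BIBR1532 and 21.9 and 21.5 CPM in control. PFKFB4, which sets the level of the glycolysis activator fructose 2,6-bisphosphate, had 4.11 and 6.55 CPM with BIBR1532 and 32.4 and 30.1 CPM in control. In these 4 genes both BIBR1532 libraries lay far below both control libraries.

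Genes of glucose uptake and glycolysis were among the falls. The glucose transporter gene SLC2A1, named after its values were seen, had 289.7 and 319.9 CPM with BIBR1532 and 1039.8 and 979 CPM in control. LDHA, which turns pyruvate into lactate, had 1549 and 1657 CPM with BIBR1532 and 4578 and 4257 CPM in control (log2 fold change -1.46 ± 0.31, adjusted p = 0.0141, edgeR), and it was not called without any 1 of the 4 libraries. ENO2, neuronal enolase, had 5.34 and 6.04 CPM with BIBR1532 and 25.9 and 24.6 CPM in control. The 1 rise was that of ADM, adrenomedullin, at 1105 and 771 CPM with BIBR1532 and 386 and 372 CPM in control. HIF1A (132 and 133 CPM with BIBR1532 and 97.2 and 99.7 CPM in control) and VEGFA (183 and 164 CPM with BIBR1532 and 254 and 260.3 CPM in control) did not pass. Without 1 library 5 members were called lower in each case, and the 6 LOX-IMVI BR libraries alone gave 34 lower and 3 higher.

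The CA9 promoter is shown as that of the gene with the deepest fall, from RefSeq on GRCh38.p14, chr9:35673678-35673927 on the plus strand. Capitals mark the match to ACGTG, the core of the hypoxia response element, searched on both strands and found here on the opposite one.
CA9: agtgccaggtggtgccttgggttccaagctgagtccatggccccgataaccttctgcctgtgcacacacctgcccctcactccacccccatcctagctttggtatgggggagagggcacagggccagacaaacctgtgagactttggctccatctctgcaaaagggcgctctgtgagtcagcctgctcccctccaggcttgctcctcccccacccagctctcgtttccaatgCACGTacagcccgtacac
The core starts 18 bases before the gene. It occurred in 7 of the 9 called lower members with a promoter in the table (77.8%) and in 21.736% of all genes in the table.

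A few cytosolic chaperone genes fell. Of 25 tested heat shock genes, 4 were called lower and none higher, against 0.748% of symbol-named genes called lower, and 6 of the 25 lay above 0 (median log2 fold change -0.52). HSPA8, the constitutive HSC70 chaperone and one of the most abundant mRNAs of the control cells, had 476 and 745 CPM with BIBR1532 and 4803 and 4622 CPM in control (log2 fold change -2.95 ± 0.30, adjusted p = 9.92e-05, edgeR). Replicate 1 of BIBR1532 was the lower of the pair, and both were far below control. The stress-inducible HSPA1A had 13.5 and 19.6 CPM with BIBR1532 and 62.3 and 56.7 CPM in control, and HSPA1B had 11.2 and 16.1 CPM with BIBR1532 and 44.5 and 44.1 CPM in control. These 2 genes are near-identical copies that share reads, so their separate values are uncertain, and neither was called without replicate 1 of BIBR1532 or replicate 1 of control. HSP90AB1, the constitutive HSP90, had 2546 and 2817 CPM with BIBR1532 and 5623 and 5371 CPM in control, and its call was lost without any 1 of the 4 libraries. Among 25 tested endoplasmic reticulum chaperone and unfolded protein response genes, 2 were lower (MANF and CRELD2) and 1 higher (ERN1, which encodes the sensor IRE1-alpha), with a median of -0.54. MANF and CRELD2 lost their calls without any 1 of the 4 libraries, and ERN1 without replicate 1 of BIBR1532 or either control library. HSPA5, which encodes the chaperone BiP, had 2022 and 1959 CPM with BIBR1532 and 2267 and 2169.8 CPM in control and did not pass.

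Other large changes fell outside these programmes. EFNA1, a ligand of EPH receptors, had 19.9 and 8.19 CPM with BIBR1532 and 0.452 and 0.273 CPM in control (log2 fold change 5.26 ± 0.54, adjusted p = 9.92e-05, edgeR). EDN1, the endothelin precursor, had 10.2 and 4.54 CPM with BIBR1532 and 0.452 and 0.455 CPM in control, and the endothelin receptor gene EDNRB 5.55 and 5.29 CPM with BIBR1532 and 1.46 and 1.37 CPM in control. The kinase gene CDK15 had 38.8 and 31.8 CPM with BIBR1532 and 2.81 and 2.28 CPM in control. Each of these genes was low or near absent in control. Among the falls, AKAP12, a scaffold of protein kinase A, had 147 and 175 CPM with BIBR1532 and 969 and 913 CPM in control, and STC1, a secreted glycoprotein, 57.6 and 53.6 CPM with BIBR1532 and 245 and 242 CPM in control. TUBB3, a beta-tubulin, had 28.4 and 32.6 CPM with BIBR1532 and 152 and 146 CPM in control, and COL6A1, a collagen VI chain, 945 and 984 CPM with BIBR1532 and 2644 and 2539 CPM in control. AKAP12, STC1 and COL6A1 were no longer called without any 1 of the 4 libraries, TUBB3 without replicate 1 of BIBR1532 and EDNRB without either control library. Both metallothionein list members that were called, MT1E and the zinc exporter gene SLC30A1, were higher, MT1E only with all 4 libraries in the fit, with SLC30A1 at 60.4 and 59.2 CPM with BIBR1532 and 12.4 and 12.4 CPM in control.

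Telomerase genes were not called in either direction. TERT had 13.9 and 14.2 CPM with BIBR1532 and 9.29 and 11.97 CPM in control (log2 fold change 0.40 ± 0.43, adjusted p = 0.732, edgeR). None of the 13 members of the telomerase complex was called by edgeR or DESeq2 or had an unadjusted p under 0.05, and their median log2 fold change was 0.08. Of 15 shelterin and end-protection genes none was called by either tool, and 2 had an unadjusted p under 0.05 in edgeR (median 0.02). The fit of the 6 LOX-IMVI BR libraries alone called 3 telomerase members higher and 4 lower, and 5 shelterin members in each direction. Among 54 mitosis genes edgeR called none and DESeq2 called 4 higher. Their median was 0.65, 52 of 54 lay above 0, 13 had an unadjusted p under 0.05, the 6 libraries alone gave 51 higher and 2 lower, and the GC correction gave 16 higher and none lower. Of 61 cytosolic ribosomal protein genes none was called by edgeR and 2 were lower by DESeq2, with a median of -0.67 and 24 unadjusted p under 0.05. The 6 libraries alone gave 53 of 60 lower and none higher, and the GC correction 14 lower. Of 9 tested aryl hydrocarbon receptor pathway genes neither tool called any, and 3 had an unadjusted p under 0.05 (median 0.83). The 6 libraries alone gave 5 of 7 higher and 1 lower, and the GC correction 2 of 9 higher. CYP1A1, their usual reporter gene, stayed under 1 CPM in the 4 libraries.

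Of the 8 melanocyte lineage markers checked, MITF and PAX3 were present in these cells and the others were at 0 or under 1 CPM, while 4 of 5 markers of dedifferentiated melanoma were present. The melanocyte genes TYR and DCT had 0 counts in the 4 libraries, and SOX10, MLANA, PMEL and S100B stayed under 1 CPM. AXL, a receptor kinase of dedifferentiated melanoma, had 859 and 836 CPM with BIBR1532 and 442 and 427 CPM in control (adjusted p = 0.061, edgeR), a difference that did not pass. EGFR had 211 and 206 CPM with BIBR1532 and 177 and 174 CPM in control, and WNT5A had 745 and 685 CPM with BIBR1532 and 494 and 473 CPM in control. SOX9 had 17.9 and 20.4 CPM with BIBR1532 and 22.5 and 23.2 CPM in control, and NGFR stayed under 1 CPM. MITF, the master factor of the melanocyte lineage, had 19.0 and 21.0 CPM with BIBR1532 and 7.23 and 7.83 CPM in control, which did not pass either (adjusted p = 0.149, edgeR). PAX3 had 48.9 and 42.0 CPM with BIBR1532 and 35.4 and 38.5 CPM in control. Markers of epithelial, keratinocyte and endothelial cells gave no call by edgeR or DESeq2, with 0, 1 and 1 genes at an unadjusted p under 0.05 in edgeR, and 1 of 10 tested fibroblast markers, PDGFRA, was lower, a call lost without any 1 of the 4 libraries. DESeq2 gave 2 fibroblast markers lower.

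The effect of BIBR1532 in LOX-IMVI BR was compared with that in A375 by a test of the difference between the 2 log2 fold changes, which share no library. The difference was called for 609 genes with a greater value in LOX-IMVI BR and 450 with a lower one (2.09% and 1.55% of genes tested, and 2.76% and 1.97% of symbol-named genes). In A375, BIBR1532 gave 2473 genes higher and 2121 lower (8.49% and 7.29%). Of these, 239 were higher in both lines, which is 28.3% of those higher in LOX-IMVI BR and 9.66% of those higher in A375. A further 19 were lower in both lines, which is 9.45% of those lower in LOX-IMVI BR and 0.896% of those lower in A375. Another 34 were higher in LOX-IMVI BR and lower in A375, and 35 the reverse. The calls of the difference depended on the libraries of A375 too, from 58 greater without replicate 2 of BIBR1532 in A375 (and as many without replicate 2 of control in LOX-IMVI BR) to 1136 without replicate 1 of its control. With the GC correction, fitted to symbol-named genes, the difference was called for 944 greater and 1428 lower genes. The main fit called 398 and 284 symbol-named genes, so that lower ones made up the larger part only with the correction. The A375 libraries stood apart in 2 ways. The median absolute log2 difference between the 2 control libraries was 0.079 in LOX-IMVI BR and 0.564 in A375. The median log2 fold change in A375 was -1.26 in the bin of lowest GC and 0.11 in that of highest GC, a wider range than in LOX-IMVI BR. The part of either in the differences between the lines was not tested.

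The effect on ATF4 genes differed between the lines. In 13 of 45 members the effect in LOX-IMVI BR was above that in A375 and in none below, and in A375 itself 2 members were called higher and 8 lower (median log2 fold change -0.33). DDIT3 had a log2 fold change of 2.97 ± 0.30 in LOX-IMVI BR and 0.01 ± 0.27 in A375 (adjusted p of the difference = 0.00127, edgeR). STC2 had 2.57 ± 0.28 in LOX-IMVI BR and -0.73 ± 0.27 in A375 (adjusted p = 0.000483, edgeR). Beyond this list, GADD45A had log2 fold changes of 3.65 ± 0.31 in LOX-IMVI BR and -0.61 ± 0.28 in A375, with an adjusted p of the difference of 0.000145 (edgeR). Its level was 551 and 745 CPM in A375 control and 43.5 and 40.1 CPM in LOX-IMVI BR control. The part of control levels in the differences between the lines was not tested. MYC changed by 1.33 ± 0.29 in LOX-IMVI BR and -2.23 ± 0.30 in A375, where it was called lower (adjusted p of the difference = 0.000483, edgeR). In the mitosis list 10 members had a greater effect in LOX-IMVI BR and none a lower one, and 21 were called lower in A375.

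NF-kappaB genes were called higher in both lines. In A375 15 of 22 NF-kappaB members, 10 cytokines and 5 chemokines were called higher, and 3 cytokines were called lower. The effects were called different in 3 NF-kappaB members and 7 cytokines (edgeR). IL6 had log2 fold changes of 3.93 ± 0.34 in LOX-IMVI BR and 3.58 ± 0.35 in A375 (adjusted p of the difference = 0.712, edgeR), and CXCL8 had 3.27 ± 0.47 in LOX-IMVI BR and 3.18 ± 0.47 in A375. IL1B stood apart with 1.97 ± 0.28 in LOX-IMVI BR and 6.38 ± 0.35 in A375, with an adjusted p of the difference of 0.000102 (edgeR). BIRC3 had 4.2 ± 0.71 in LOX-IMVI BR and 0.31 ± 0.63 in A375 (adjusted p of the difference = 0.0335, edgeR). In the hypoxia list, A375 had 5 members called higher and 4 lower, and 10 members had a lower effect in LOX-IMVI BR and 1 a greater one. ANGPTL4 went in opposite directions, at -3.09 ± 0.36 in LOX-IMVI BR and 5.64 ± 0.40 in A375 (adjusted p of the difference = 2.03e-06, edgeR). HSPA8 had log2 fold changes of -2.95 ± 0.30 in LOX-IMVI BR and 0.30 ± 0.28 in A375.

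**Figure D3:**
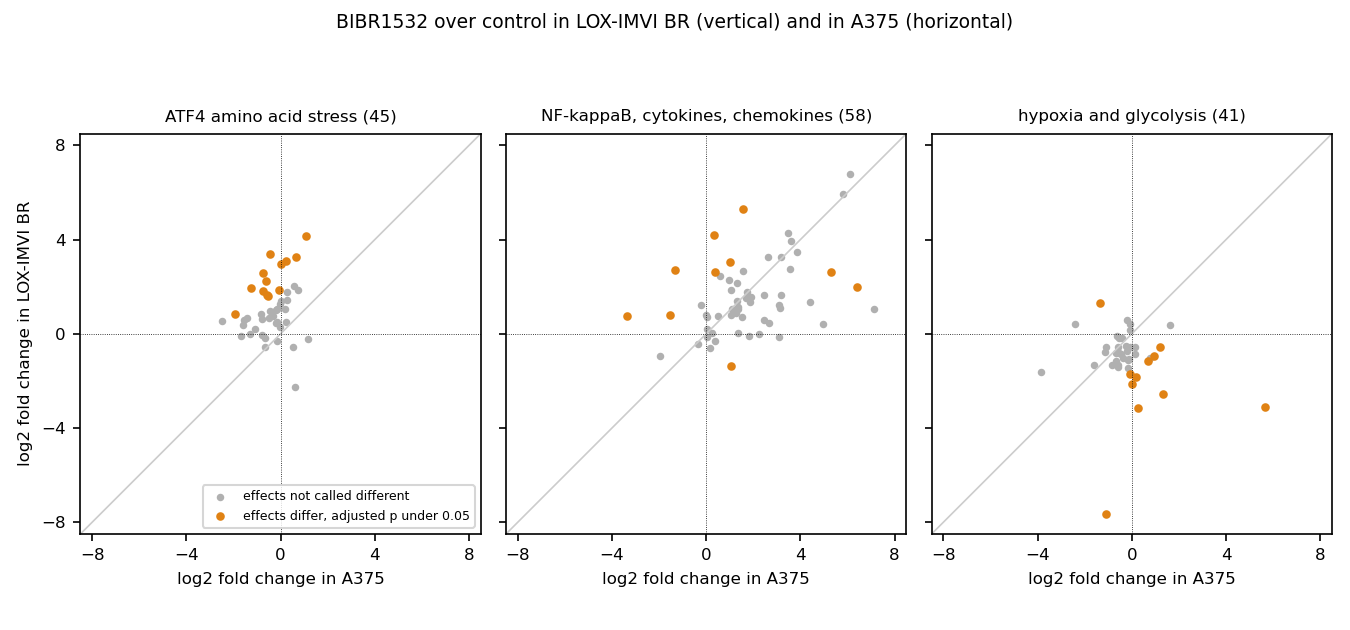
Log2 fold change of BIBR1532 over control in LOX-IMVI BR (vertical axis) and in A375 (horizontal axis) for tested members of the ATF4, the inflammatory and the hypoxia lists, 1 point per gene, with the line of equal effects in grey. Orange points are genes whose effects differ between the lines. All 13 orange ATF4 genes lie above the line, 10 of the orange hypoxia genes lie below it, and the inflammatory ones lie on both sides of it.

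A second comparison sets BIBR1532 at 25 µM directly against 6-thio-dG at 5 µM in LOX-IMVI BR, doses that are not matched. Control values are given beside them, from libraries that both compounds share. The test called 3118 genes higher and 2881 lower with BIBR1532 (10.7% and 9.9% of genes tested), and symbol-named genes made up 2132 and 799 of these (14.8% and 5.53%). Of 54 mitosis genes, 53 were higher with BIBR1532 than with 6-thio-dG, with a median log2 fold change of 2.90 against 0.22 over symbol-named genes. TOP2A, topoisomerase II-alpha, had 1431 and 1552 CPM with BIBR1532, 66.2 and 71.4 CPM with 6-thio-dG and 805 and 773 CPM in control. PLK1, a mitotic kinase, had 298 and 283 CPM with BIBR1532, 15.2 and 16.7 CPM with 6-thio-dG and 238 and 238 CPM in control. Both genes were named after their values were seen, and in both the 6-thio-dG libraries stood alone at the low end.

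The inflammatory genes differed between the compounds as well. Of 22 NF-kappaB members 19 were higher with BIBR1532 than with 6-thio-dG, of 22 cytokines 16 and of 14 chemokines 8, with 1 chemokine lower. IL6 had 555 and 319 CPM with BIBR1532, 1.64 and 2.21 CPM with 6-thio-dG and 28.7 and 28.7 CPM in control, so the compounds lay on opposite sides of control. In the ATF4 list 24 of 45 were higher with BIBR1532 and 1 lower. DDIT3 had 78.0 and 85.9 CPM with 6-thio-dG, between its values with BIBR1532 and in control. In the hypoxia list 11 of 41 were higher with BIBR1532 and 1 lower. Other genes did not pass the test between the compounds. GDF15 had 339.7 and 273 CPM with BIBR1532 and 355 and 338 CPM with 6-thio-dG (log2 fold change -0.18 ± 0.35, adjusted p = 0.784, edgeR). NDRG1 had 32.6 and 33.4 CPM with BIBR1532, 55.9 and 56.1 CPM with 6-thio-dG and 307 and 284 CPM in control. The compounds did not overlap in NDRG1 (log2 fold change -0.76 ± 0.35, adjusted p = 0.138, edgeR). With 6-thio-dG, CA9 had 0.160 and 0.138 CPM, against 18.8 and 17.9 CPM in control. ANGPTL4 had 2.81 and 2.86 CPM against 21.9 and 21.5 CPM, and PFKFB4 4.29 and 3.90 CPM against 32.4 and 30.1 CPM. Each of these hypoxia genes thus lay below control with both compounds. A p above the threshold does not show that the compounds act alike there. CDKN1A had 95.4 and 111 CPM with BIBR1532 and 276 and 268 CPM with 6-thio-dG (log2 fold change -1.40 ± 0.34, adjusted p = 0.00943, edgeR). HSPA8 had 476 and 745 CPM with BIBR1532, 5566 and 5614 CPM with 6-thio-dG and 4803 and 4622 CPM in control, with BIBR1532 alone at the low end.

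**Figure D4:**
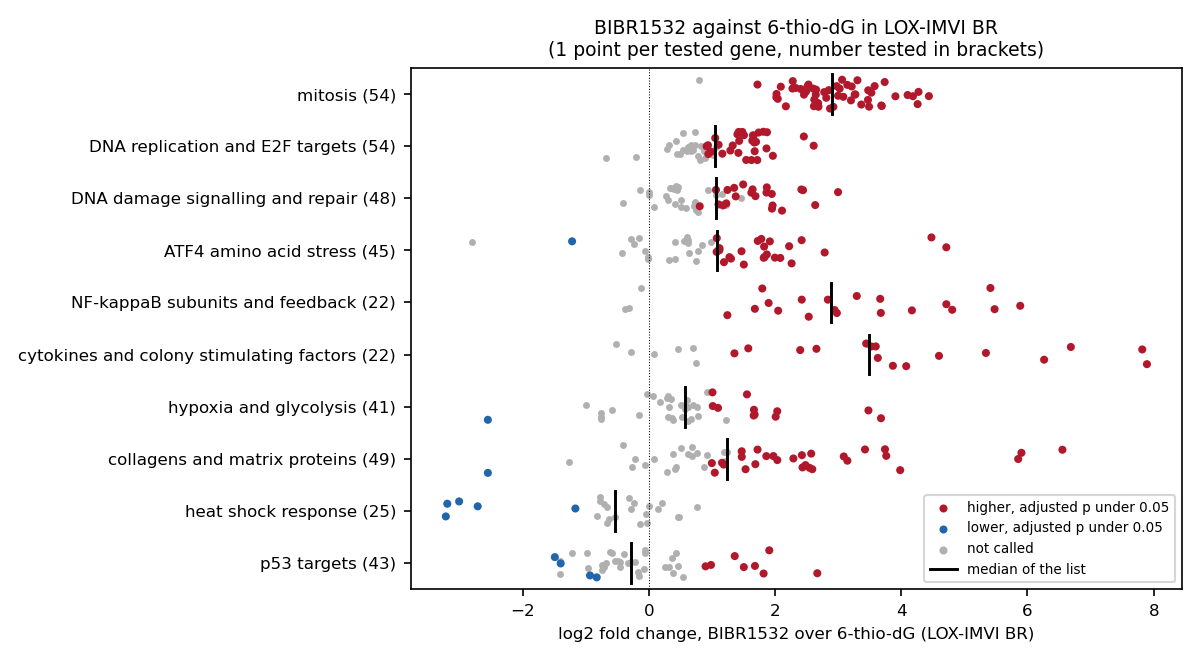
Log2 fold change of BIBR1532 over 6-thio-dG in LOX-IMVI BR (horizontal axis) for tested members of 10 gene lists (rows), with red points called higher, blue points called lower, grey points neither and black bars at list medians. All mitosis points but 1 are red with a median of 2.90, and the heat shock row holds 5 blue points.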

How the data were processed

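The values deposited by the authors are raw counts per gene in whole numbers, in a single file for 12 libraries. Per the submitters' processing notes, the tools were STAR, Picard, GATK and featureCounts 1.5.1 and the builds hg19 and GRCh37. What each tool was used for is not stated there. The kit keeps no strand, per the labels' protocols, so overlapping or antisense genes cannot be separated, and near-identical copies share reads. Of 75253 rows, 54072 carried NONCODE identifiers. Symbols turned into dates left 4 rows that could not be told apart, which were dropped (0.000913% of a library or less), and 24 more that stayed in the fit without being named.

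Tests used R 4.3.3 with edgeR 4.0.16, DESeq2 1.42.0, limma 3.58.1 and version 1.17.8 of the data.table package: filterByExpr, TMM scaling, 1 mean per line and treatment over 12 libraries in 6 groups, and robust quasi-likelihood with 6 residual degrees of freedom. The p-values measure the spread between these libraries, since nothing says they came from separate cultures beyond the word replicate. Between the 2 LOX-IMVI BR control libraries the median chi-square of the counts was 0.567, where counting error alone would give 0.455. It was 0.915 between the 2 BIBR1532 libraries of that line. GC content came from GENCODE transcripts for 14362 of the 14439 tested symbol-named genes. Promoters came from RefSeq. Fits were tested on simulated data, with 100 genes changed by a log2 fold change of 1 in size and 100 by 2. There edgeR recovered 7 of the 100 smaller changes and 87 of the 100 larger ones, and DESeq2 26 and 99. Most changes of 1 in log2 size were thus missed. Among the 22324 genes run, the unchanged ones called in error numbered 5 with edgeR and 24 with DESeq2.

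Genes named were the 15 largest rises and 15 largest falls among called symbol-named genes at a mean of 5 CPM or more in the higher group with both libraries beyond both of the other, up to 4 called members of each of 46 lists by smallest adjusted p, and 13 followed whatever their result. The text gives a selection. Members, lists and tests were chosen with earlier results of these data known. Alternatives were other scaling factors, DESeq2, low-count filters, the line alone, a replicate block, a GC correction and leaving out each library.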

Additional observations from a re-analysis of the deposited data

Results flagged for a closer look

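Of the genes followed by name, 90 were called in LOX-IMVI BR. The effect of BIBR1532 differed between the 2 lines in 55 of these 90, by the test of the difference itself (edgeR, adjusted p under 0.05). The values below are the log2 fold change in LOX-IMVI BR minus that in A375. It was greater in LOX-IMVI BR in 31 genes and below that in A375 in 24, against 2.76% and 1.97% of all symbol-named genes. The genes were picked for their change in LOX-IMVI BR, so these counts are descriptions. Of the followed genes not called in LOX-IMVI BR, MITF also differed, at 3.72 (adjusted p of the difference = 0.0113, edgeR). Its log2 fold changes were 1.41 ± 0.49 in LOX-IMVI BR and -2.32 ± 0.50 in A375.

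Among stress and growth arrest genes the difference was 3.08 for CHAC1, 2.87 for SESN2, 2.96 for DDIT3, 3.31 for STC2, 2.89 for PPP1R15A, 4.26 for GADD45A, 3.90 for GDF15, 2.26 for BTG2 and 2.82 for ATF3. Each of these genes had a higher level in A375 control than in LOX-IMVI BR control. GDF15, for example, had 687 and 1506 CPM in A375 control and 44.3 and 43.0 CPM in LOX-IMVI BR control. Inflammatory and NF-kappaB genes gave 3.73 for PTX3, 2.25 for LIF, 2.07 for TNFAIP3 and 3.89 for BIRC3, all greater in LOX-IMVI BR, and -4.42 for IL1B, -2.66 for TNFRSF9, -3.79 for SERPINB2 and -2.08 for PLAU, where the effect in A375 was the greater. Growth factor, ERK and MYC network genes gave 1.97 for EREG, 2.27 for HBEGF, 1.89 for DUSP5, 3.56 for MYC, 2.14 for MXD1 and 3.27 for NR4A3. Targets of YAP and TEAD gave 7.21 for ANKRD1, 2.15 for CYR61, 2.46 for AJUBA and 2.35 for F3.

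Hypoxia genes had a lower effect in LOX-IMVI BR, with differences of -6.54 for CA9, -8.73 for ANGPTL4, -3.41 for NDRG1, -3.85 for PFKFB4, -2.16 for ENO2 and -1.83 for MXI1. AK4 and PPFIA4, which were named as large falls and are not on the hypoxia list, gave -1.83 and -4.42. The chaperone genes gave -3.25 for HSPA8, -3.04 for HSPA1A and -3.29 for HSPA1B. Secreted, matrix and signalling genes with a lower effect gave -4.04 for STC1, -2.24 for COL6A1, -2.34 for ADAM12, -2.17 for PDGFRA, -2.16 for ID1, -2.13 for FGF11, -2.80 for TUBB3, -2.55 for BMF and -2.25 for RAB38. The remaining genes with a greater effect in LOX-IMVI BR gave 4.92 for EFNA1, 3.97 for EDN1, 1.88 for EDNRB, 4.90 for CDK15, 2.29 for ANGPT4, 3.02 for TYRP1, 3.84 for FST and 3.06 for C8orf46.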

How the results depend on the processing

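No followed gene changed its direction under any alternative, and the counts below moved by over 1.5 times, for which the cause was not tested unless the fit itself holds fewer libraries or genes. For BIBR1532 against control in LOX-IMVI BR (845 higher and 201 lower), the 6 libraries of the line alone gave 5559 and 5243, and its 4 libraries alone 5258 and 4876. Lower genes came to 410 with no low-count filter. With the GC correction, which holds symbol-named genes only, they came to 690, against 108 symbol-named genes in the main fit. Leaving out 1 library gave 174 to 376 higher and 20 to 38 lower, in fits where the lone library of a group is assumed to vary like the other groups. For the difference between the lines (609 greater and 450 lower in LOX-IMVI BR), greater genes came to 1235 by DESeq2, 2094 with no low-count filter, 382 with a filter of 1 CPM in 2 libraries and 944 with the GC correction. Lower ones came to 747 with upper-quartile factors, 841 by DESeq2, 908 with no low-count filter and 1428 with the GC correction. The counts with the GC correction are of symbol-named genes, of which the main fit called 398 greater and 284 lower. Leaving out 1 library gave 58 to 1136 greater and 78 to 1132 lower. For BIBR1532 against 6-thio-dG (3118 higher and 2881 lower), upper-quartile factors gave 2017 and 4595, the 6 libraries alone 7952 and 8160, and leaving out 1 library 1317 to 1767 and 785 to 1142. For A375 (2473 higher and 2121 lower), lower genes came to 3275 with no low-count filter and 1330 with the filter of 1 CPM, and leaving out 1 library gave 846 to 2902 higher and 91 to 2370 lower.

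The share of higher calls in LOX-IMVI BR was 80.8%, and 51.5% in the 6 libraries alone, 61.4% with the GC correction (symbol-named genes only) and 74.1% with upper-quartile factors. The deviations of same-numbered BIBR1532 and control libraries of LOX-IMVI BR correlated at 0.06 over 11213 genes. That value cannot exclude pairing, since the control libraries differed by little more than counting error (median chi-square 0.567 against 0.455). A block for the replicate number gave 601 higher and 114 lower there. In A375 that correlation was -0.35, and with the numbers crossed, an alternative chosen after seeing the data, the difference between the lines was called for 976 greater and 617 lower genes. Of the 90 called genes followed by name, 90 were called by DESeq2, 80 with upper-quartile factors, 76 with the block, 89 with the GC correction and 53 to 62 without 1 library.

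Depth limits genes near 0 in one group, such as CA9 and TNF, where intervals cover counting error only. With 2 libraries a group and the spread of all 12, a gene that was not called may still differ. Of the genes followed by name that the main fit did not call, 6 were called in the 6 LOX-IMVI BR libraries alone. The 4 libraries of the comparison alone also called 6 such genes, and the GC correction 4.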

Other observations

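Several lists held a few calls each (edgeR, adjusted p under 0.05), and the genes named here were chosen after their values were seen. In the BMP pathway, BMP2, a secreted ligand, had 66.5 and 51.1 CPM with BIBR1532 and 18.5 and 18.3 CPM in control, whereas NOG, which encodes the BMP antagonist noggin, had 0.343 and 0.281 CPM with BIBR1532 and 2.81 and 2.82 CPM in control. ID1, a direct target of BMP signalling, had 28.0 and 24.6 CPM with BIBR1532 and 89.5 and 84.7 CPM in control. The ligand gene was thus higher while the antagonist and the target gene were lower. Over the 30 tested TGF-beta and BMP genes, 2 were higher and 3 lower, with a median log2 fold change of 0.05.

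Among 20 tested melanocyte lineage and pigment genes, 2 were higher and 1 lower. TYRP1, a melanosome enzyme, had 5.41 and 4.68 CPM with BIBR1532 and 1.31 and 0.819 CPM in control, and RAB38, a GTPase of melanosome transport, had 7.26 and 7.58 CPM with BIBR1532 and 21.1 and 19.5 CPM in control. Of 49 tested collagen and matrix genes, 3 were higher and 3 lower. The cross-linking enzyme gene LOXL2 had 219 and 220.2 CPM with BIBR1532 and 687 and 654 CPM in control. Of 23 tested fatty acid synthesis genes the 1 call was a fall of SCD, a desaturase, at 654 and 704 CPM with BIBR1532 and 1529.8 and 1470.0 CPM in control. Of 45 tested interferon-stimulated genes the 1 call was a rise of IRF1, which NF-kappaB also controls, at 12.7 and 8.56 CPM with BIBR1532 and 3.82 and 2.91 CPM in control. Of 35 tested NRF2 targets the 1 call was a rise of OSGIN1, at 8.22 and 7.86 CPM with BIBR1532 and 2.61 and 3.14 CPM in control. Over all symbol-named genes 3.03% were called higher and 0.748% lower, so the NRF2 and interferon lists, with 1 rise each, stood near that background and give no result about the lists. In each gene named here the groups did not overlap, which is a description, since the share over all genes is not given. The calls of ID1, RAB38, LOXL2, SCD and OSGIN1 were lost without any 1 of the 4 libraries. Those of BMP2 and IRF1 were lost without replicate 1 of BIBR1532 or either control library, that of NOG without either BIBR1532 library, and that of TYRP1 without replicate 2 of control.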
